A study of Mus musculus with 17 samples.

Results

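Oxidative phosphorylation genes were followed through the RNA sequencing counts of CD8+ T cells, the lymphocytes that kill infected or altered cells, from brain and blood of 2 mouse strains. The genes were taken by symbol. Symbols starting with mt-Nd, mt-Co, mt-Cytb or mt-Atp gave the mitochondrially encoded set, and those starting with Ndufa, Ndufb, Ndufc, Ndufs, Ndufv, Uqcr, Atp5 or Cox followed by 4 to 8 gave the nuclear set. The rule used no measured value, and 7 pseudogenes ending in -ps, all at 0 counts, were left out. It gave 101 of 48709 listed genes, 13 encoded by the mitochondrial genome and 88 by nuclear chromosomes. The nuclear set held 38 genes of complex I, 8 of complex III, 18 of complex IV and 15 of complex V, which is ATP synthase. It also held 7 complex I assembly factors (the Ndufaf genes) and the pair Atp5s and Atp5sl, which carry the prefix but are not ATP synthase subunits.

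The libraries formed 4 groups: 4 of APP-PS1 brain, 3 of APP-PS1 blood, 5 of WT brain and 5 of WT blood. APP-PS1 (APP Swedish PS1 dE9) mice are an amyloid model of Alzheimer's disease. They carry a chimeric mouse and human APP with the Swedish mutation and a mutant human presenilin 1. Both are directed to neurons of the central nervous system by the prion protein promoter. Expression of the transgenes in the CD8+ cells was not examined here. WT mice were the controls. The design text calls the mice aged, and no age in months is used here. Males gave 3 of the 4 APP-PS1 brain libraries and 2 of the 3 from APP-PS1 blood, whereas every WT library was female, so sex and strain largely coincided. Brains were minced, homogenized and cleared of myelin on a density gradient, while blood went through red cell lysis, so tissue and preparation cannot be told apart. The step that separated the CD8+ cells after antibody staining was not given. By the design text there were 7 APP-PS1 mice and 10 WT mice, as many as there are libraries of each strain, and no label pairs libraries across tissues. The p-values thus measure the spread among these libraries, part of which may be technical.

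Oxidative phosphorylation passes electrons from NADH and succinate along the respiratory chain of the inner mitochondrial membrane to oxygen. Complex I (NADH dehydrogenase), complex III (the cytochrome bc1 complex) and complex IV (cytochrome c oxidase) pump protons on the way, and complex V uses the resulting gradient to make ATP. Some of the core subunits of these complexes come from the mitochondrial genome, which is transcribed as long polycistronic RNAs that are then cut. The remaining subunits come from scattered nuclear genes with their own promoters. In T cells, resting and memory cells are known to rely on this route, whereas activated effector cells add aerobic glycolysis.

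The layout of the mitochondrial genome bears on what a count per gene can mean, and the 2 longest stretches that coding sequences share on one strand are shown here; mt-Atp6 and mt-Co3 share a further 1 base. They were read from GENCODE M21 transcripts on GRCm38, the build of the deposited counts. The end of mt-Atp8, chrM:7880-7969 on the plus strand, shares its last 43 bases with the start of mt-Atp6, both subunits of the membrane part of ATP synthase. The end of mt-Nd4l, chrM:10114-10173 on the plus strand, shares its last 7 bases with the start of mt-Nd4, both subunits of the complex I membrane arm. Capitals mark the shared bases, which open with the ATG of the downstream gene.
mt-Atp8 end: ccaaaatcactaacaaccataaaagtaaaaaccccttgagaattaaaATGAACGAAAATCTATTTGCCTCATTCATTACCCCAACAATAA
mt-Nd4l end: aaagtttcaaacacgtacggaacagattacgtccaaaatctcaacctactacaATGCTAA

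The nuclear genes have no shared transcript, so what their promoters hold in common was searched. Promoter windows of 300 bases (250 before and 50 after the start) came from RefSeq on GRCm38.p6 and matched 70 of the 88 nuclear genes. A letter string each was looked for on both strands for NRF1 (nuclear respiratory factor 1), for ETS factors of the GABP type and for YY1. All of these factors are known regulators of nuclear mitochondrial genes. The NRF1 string, given in capitals below and the same on both strands, was in 7 windows (10.0%), against 2.55% of the windows of 1804 tested genes with an entry and 0.977% of all 27025 windows. The ETS string CCGGAAG was in 14 windows (20.0%), against 21.4% for the tested genes and 9.12% of all. The YY1 string, of 10 letters, was in 4 windows (5.71%), against 2.88% for the tested genes and 0.899% of all. The NRF1 share was above that of the tested genes, whereas the ETS share was close to theirs. A match describes letters in a window and is not evidence of binding. Shown are the 3 genes whose NRF1 string lies upstream with at most 30 annotated exon bases around it. Each stretch gives the string in capitals with 30 bases on either side. They belong to Cox6a1, a complex IV subunit (chr5:115349081-115349150, minus strand), to Ndufa11, a membrane subunit of complex I (chr17:56717672-56717741, plus strand), and to Ndufaf4, a complex I assembly factor (chr4:24897940-24898009, plus strand).
Cox6a1: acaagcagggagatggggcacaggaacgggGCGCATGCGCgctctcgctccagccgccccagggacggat
Ndufa11: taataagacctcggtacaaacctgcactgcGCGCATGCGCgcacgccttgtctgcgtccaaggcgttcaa
Ndufaf4: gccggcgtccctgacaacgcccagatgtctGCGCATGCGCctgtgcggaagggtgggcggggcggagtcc

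The libraries were shallow, with 27646 to 214670 counts each, and 13539 genes had at least 1 count. APP-PS1 blood was shallower, at 39055 to 46336 counts, than WT blood, at 62604 to 214670 counts. T cell markers summed to 7813 to 11513 CPM (counts scaled to a fixed library total) in all 17 libraries, with all 8 markers detected in each group, and Cd4 had no count. The 5 red cell markers summed to 36.2 to 873 CPM in brain and to 2152 to 9967 CPM in blood, with Alas2 at 0 in all groups. The 6 B cell markers summed to 40.8 to 574 CPM in brain and to 108 to 419 CPM in blood, with Ms4a1 at 0 in all groups. The 11 microglia and macrophage markers reached at most 178 CPM in brain libraries and at most 245 CPM in blood libraries, with Tmem119, P2ry12, C1qa and Trem2 at 0 in all groups. Of the 5 neutrophil and monocyte markers, summing to 489 to 835 CPM in brain and to 512 to 1316 CPM in blood, S100a8 and S100a9 were at 0. The part of these other markers in the results below was not tested. APP-PS1 brain replicate 1 and APP-PS1 blood replicate 1 had the lowest mean rank correlations with the other libraries, 0.626 and 0.616. The remaining 15 had 0.660 to 0.729. This pair was also the shallowest, at 27646 and 39055 counts, and the part of depth in the low correlations was not tested. The comparisons were repeated without this pair.

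Of the 101 genes, 95 had at least 1 count, and 80 to 92 were detected per library. Together they made up 3.61 to 5.46% of all counts in a library. The 13 mitochondrial genes took 1.84, 1.70, 2.49 and 2.83% of the counts in the APP-PS1 brain libraries, against 3.31, 3.34 and 2.17% in APP-PS1 blood. They took 2.97, 2.51, 1.83, 2.60 and 2.86% in WT brain, against 2.22, 2.29, 2.83, 3.23 and 1.53% in WT blood. Wilson 95% intervals for these single-library shares were narrow, for example 1.69 to 2.01% in the shallowest library (APP-PS1 brain replicate 1), and they cover counting error only. The group means with SD were 2.22 ± 0.535% over the 4 APP-PS1 brain libraries and 2.94 ± 0.665% over the 3 from APP-PS1 blood. In WT mice they were 2.55 ± 0.447% over 5 brain libraries and 2.42 ± 0.646% over 5 blood libraries. All 4 groups overlapped. The APP-PS1 brain mean differed from the APP-PS1 blood mean by -0.722 percentage points, and by -0.414 points without the 2 libraries that stood apart. With 1 library left out the difference ran from -1.11 points (without APP-PS1 blood replicate 3) to -0.522 points. The 1 female APP-PS1 brain library stood at 2.83% and the 1 female APP-PS1 blood library at 2.17%, the opposite order to that of their group means. In bulk RNA of this kind, fewer cells of a type and less RNA per cell cannot be told apart.

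The nuclear genes took a steadier share. Their summed share was 1.99 ± 0.186% (SD) over the APP-PS1 brain libraries and 2.06 ± 0.139% over those of APP-PS1 blood. It was 2.06 ± 0.158% over the WT brain libraries and 1.96 ± 0.131% over those of WT blood. Across all 17 libraries the nuclear share ran from 1.77 to 2.34%, with a coefficient of variation of 7.28% and a ratio of highest to lowest of 1.32. The mitochondrial share ran from 1.53 to 3.34%, with a coefficient of variation of 22.7% and a ratio of 2.17. The number of mitochondrial counts per nuclear count accordingly ran from 0.741 in WT blood replicate 5 to 1.67 in WT blood replicate 4, so the widest gap lay within 1 group. Because shares of counts add to a whole, the nuclear share was also taken of the counts outside the mitochondrial genes, where it averaged 2.03 ± 0.188% in APP-PS1 brain, 2.13 ± 0.157% in APP-PS1 blood, 2.12 ± 0.163% in WT brain and 2.01 ± 0.129% in WT blood.

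**Figure D1:**
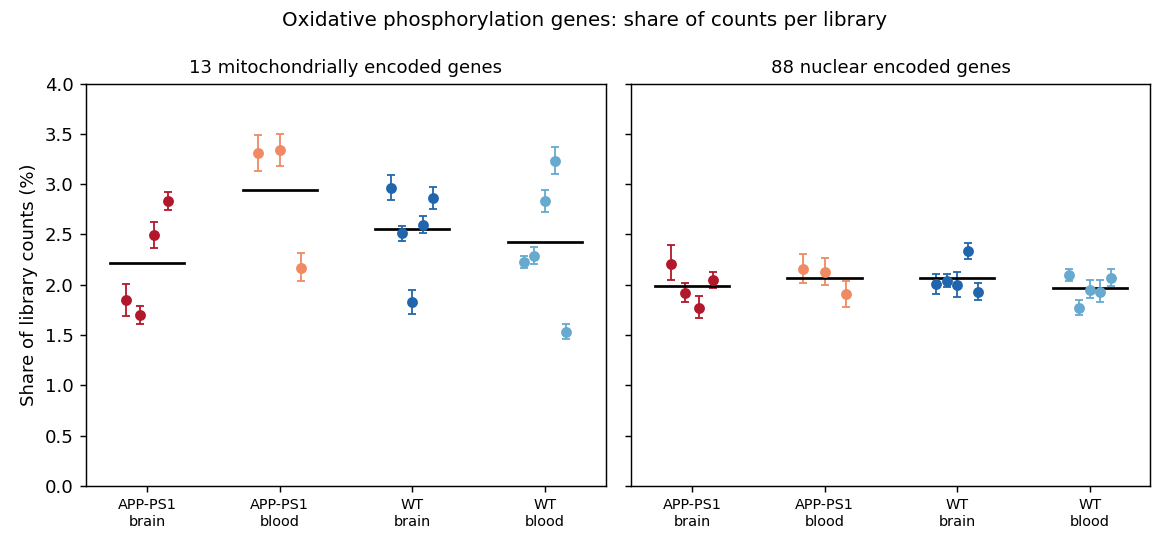
Share of library counts (percent, y axis) taken by the 13 mitochondrially encoded genes (left) and the 88 nuclear encoded genes (right) in the 4 groups (x axis). Each point is 1 library with its Wilson 95% interval and black lines are group means; mitochondrial shares run from 1.53 to 3.34% and nuclear shares from 1.77 to 2.34%.

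Among mitochondrial messages, mt-Atp6, the ATP synthase subunit of the proton channel, took the largest part of the mitochondrial counts in every library. Its part averaged 22.5% in APP-PS1 brain, 23.8% in APP-PS1 blood, 22.6% in WT brain and 24.9% in WT blood. Over all 17 libraries the complex IV core subunits mt-Co1, mt-Co3 and mt-Co2 averaged 15.2%, 12.2% and 9.19%, and mt-Cytb, the only complex III subunit of this genome, 11.1%. Of the complex I subunits, mt-Nd1, mt-Nd4 and mt-Nd2 averaged 9.99%, 7.00% and 6.62%, and mt-Nd5, mt-Nd3, mt-Nd4l and mt-Nd6 between 0.284 and 2.86%. These are parts of counts and may depend on transcript length.

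Per kilobase of the annotated transcript, mt-Atp6 (ENSMUSG00000064357, chrM:7927-8607 (+)) was again highest, at 8689 CPM per kb as the mean of the 4 group means. mt-Co3 (3913 CPM per kb) and mt-Co2 (3357 CPM per kb) came next, and mt-Nd1, mt-Co1 and mt-Cytb lay close together at 2635, 2528 and 2445 CPM per kb. mt-Nd2 reached 1665, mt-Nd4 1270.5 and mt-Nd5 395 CPM per kb. Although mt-Atp8 and mt-Atp6 share the 43 bases printed above, mt-Atp8 stood at 1015 CPM per kb against 8689 for mt-Atp6, and mt-Nd4l at 422 against 1270.5 for mt-Nd4. The counting of reads on shared bases was not stated, so these gaps cannot be read as differences between separate messages. The lowest was mt-Nd6 (ENSMUSG00000064368, chrM:13552-14070 (-)), the only coding gene on the minus strand, at 118 CPM per kb. It shares 14 bases with mt-Nd5 on the other strand, and since the strand setting of the counting was not stated, reads of opposite strands cannot be told apart. The 24 mitochondrial ribosomal and transfer RNA genes were listed at 0 counts in every library. All listed miRNA (2202), snRNA (1383) and snoRNA (1507) genes were also at 0. Whether these classes were counted was not stated, so the 0 is not a measured absence.

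The values of the leading message varied as follows. mt-Atp6 had 4341, 3337, 5831 and 6625 CPM in the APP-PS1 brain libraries, against 7118, 8784 and 5085 CPM in APP-PS1 blood. In WT brain it had 6560.1, 5862, 4515, 5531 and 6198 CPM, against 5106, 5646, 6455, 7635 and 4695 CPM in WT blood. The groups overlapped in both strains. mt-Co1, which holds the oxygen-reducing centre of complex IV, had 2749, 2552, 3431 and 5818 CPM in APP-PS1 brain, against 5992, 4769.5 and 3066 CPM in APP-PS1 blood. In WT brain it had 6084, 3002, 2815, 2693 and 6052 CPM, against 3647, 3147, 4783, 2811 and 1837 CPM in WT blood. WT brain replicates 1 and 5 were each more than 2 times as high as the other 3 WT brain libraries, and the groups overlapped. mt-Cytb had 3511, 3037, 2150.1, 3346 and 3089 CPM in WT brain, against 1924, 2048, 2843, 4441 and 1267 CPM in WT blood, and WT blood held both its lowest and its highest value of all libraries.

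**Figure D2:**
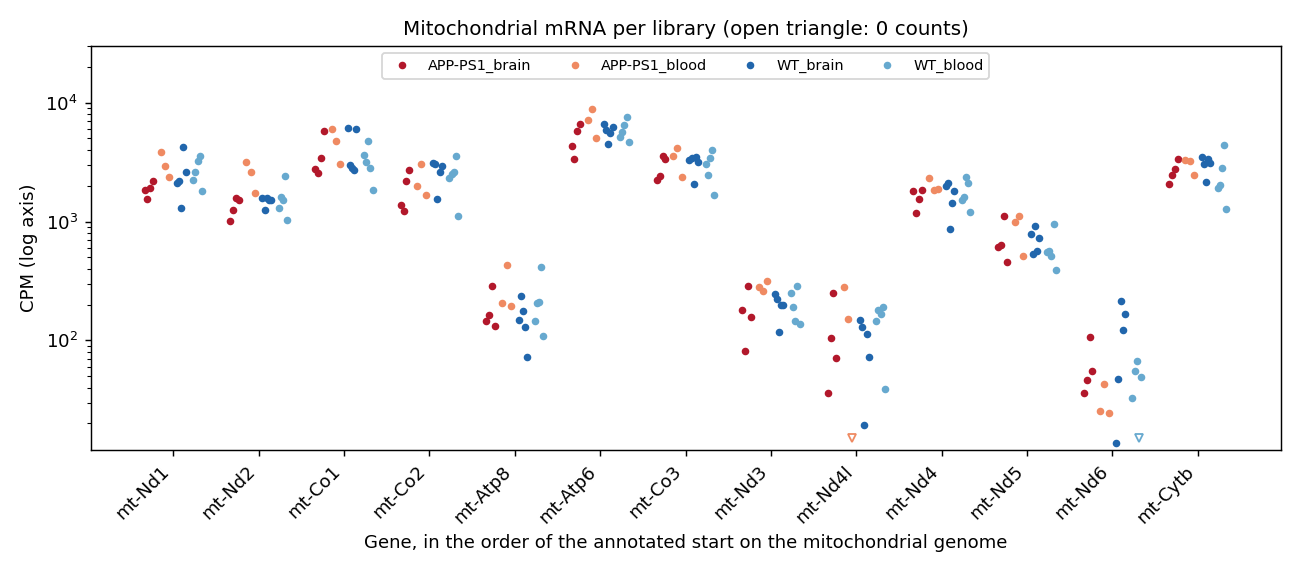
CPM (log y axis) of the 13 mitochondrially encoded genes (x axis, in genome order) in each library, coloured by group; an open triangle marks a library with 0 counts. mt-Atp6 lies highest, and mt-Nd6 and mt-Nd4l are near the floor, each with 1 library at 0.

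Values summed over the genes of a complex are given as mean ± SD over the libraries of a group. The nuclear genes of complex I stood at 8654 ± 634 CPM in APP-PS1 brain, 9707 ± 586 CPM in APP-PS1 blood, 8996 ± 1084 CPM in WT brain and 8381 ± 856 CPM in WT blood. Its 3 highest genes by mean CPM over the groups were Ndufa13, an accessory subunit also known as GRIM-19 that binds STAT3 (ENSMUSG00000036199, chr8:69894180-69902558 (-)), Ndufa7, an accessory subunit (ENSMUSG00000041881, chr17:33824572-33838317 (+)), and Ndufa3, a small membrane subunit (ENSMUSG00000035674, chr7:3617373-3620327 (+)). Ndufa13 had 1085, 784, 1173 and 877 CPM in APP-PS1 brain, against 1741, 928 and 1143 CPM in APP-PS1 blood. It had 994, 789, 1134, 948 and 616 CPM in WT brain, against 927, 712, 658, 958 and 1277 CPM in WT blood, and the groups overlapped. Ndufa3 (1319.6 CPM per kb) and Ndufa7 (1314 CPM per kb) stood above Ndufa13 (810.0 CPM per kb) once divided by the length of a single annotated transcript. The library preparation was not given, so whether counts grow with transcript length is not known. Core subunits named here for their role, after their values were seen, stood lower. Ndufs1, the large iron-sulphur subunit, reached 5.33 CPM per kb, and Ndufv1, which binds NADH, 44.7 CPM per kb. The 7 assembly factors together had 205 ± 35.7 CPM in APP-PS1 brain, 119 ± 145 CPM in APP-PS1 blood, 264 ± 51.1 CPM in WT brain and 189 ± 101 CPM in WT blood.

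Complex III summed to 2023 ± 579 CPM in APP-PS1 brain, 2000.4 ± 245 CPM in APP-PS1 blood, 1849.7 ± 253 CPM in WT brain and 1842 ± 262 CPM in WT blood. Its highest genes by CPM were the small subunits Uqcr10 (873 CPM per kb), Uqcrh, the hinge protein (691 CPM per kb), and Uqcrq (218 CPM per kb). The Rieske iron-sulphur protein gene Uqcrfs1, again named for its role, stood at 69.7 CPM per kb. For Uqcr10 the mean was 336 ± 107 CPM over 4 libraries (SD) of APP-PS1 brain and 484 ± 105 CPM over 3 libraries (SD) of APP-PS1 blood. In WT mice it was 335 ± 70.7 CPM over 5 libraries (SD) of brain and 361 ± 87.9 CPM over 5 libraries (SD) of blood.

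Complex IV summed to 4361 ± 746 CPM in APP-PS1 brain, 4465 ± 376 CPM in APP-PS1 blood, 4663 ± 559 CPM in WT brain and 4763 ± 269 CPM in WT blood. Its highest genes by CPM were Cox4i1, the regulatory subunit that starts assembly (996 CPM per kb), Cox8a (1023 CPM per kb) and Cox6c (725 CPM per kb). Cox4i1 (ENSMUSG00000031818, chr8:120668222-120674207 (+)) had 723, 539, 622 and 689 CPM in APP-PS1 brain, against 1101, 906 and 706 CPM in APP-PS1 blood. It had 708, 901, 665, 1017 and 793 CPM in WT brain, against 792, 704, 636, 607 and 678 CPM in WT blood. All groups overlapped. Complex V summed to 4621 ± 244 CPM in APP-PS1 brain, 4280.2 ± 351 CPM in APP-PS1 blood, 4789 ± 409 CPM in WT brain and 4443 ± 284 CPM in WT blood. Its highest genes by CPM were Atp5j (subunit F6), Atp5o (the oligomycin sensitivity protein) and Atp5l (subunit g), at 613, 531 and 808 CPM per kb. The catalytic subunit gene Atp5b, named for its role, stood at 97.7 CPM per kb. For Atp5o the mean was 541 ± 158 CPM over 4 libraries (SD) of APP-PS1 brain and 429 ± 37.0 CPM over 3 libraries (SD) of APP-PS1 blood. In WT mice it was 398 ± 133 CPM over 5 libraries (SD) of brain and 412 ± 73.0 CPM over 5 libraries (SD) of blood.

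For the subunits Cox4, Cox6a, Cox6b, Cox8 and Ndufa4, the widely expressed isoform gene carried all counts or all but 1, whereas the Cox7a and subunit c families were divided among several genes. Cox4i1 had 1175 counts and Cox4i2, the isoform known from lung and hypoxia, none. Cox6a1 had 576 counts and the heart and muscle isoform Cox6a2 none. Cox6b1 had 846 counts and the testis isoform Cox6b2 had 1. Cox8a had 1031 counts, while Cox8b and Cox8c had none. Cox7a2 had 535 counts, Cox7a2l, known for its role in supercomplexes, 308, and the muscle isoform Cox7a1 had 1. Ndufa4, first assigned to complex I and now placed in complex IV but counted above under complex I, had 695 counts, and its paralogue Ndufa4l2, a hypoxia-induced gene, none. With 3 counts as the limit that a count of 0 allows, an absent isoform could reach at most 14.0 CPM in the deepest library (WT blood replicate 1) and 109 CPM in the shallowest (APP-PS1 brain replicate 1). The 3 genes for the identical mature subunit c of the ATP synthase ring were all used: Atp5g1 had 344 counts, Atp5g2 378 and Atp5g3 161. The same isoforms were counted in all 4 groups, and the single counts of Cox6b2 and Cox7a1 lay in 1 library each.

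**Figure D3:**
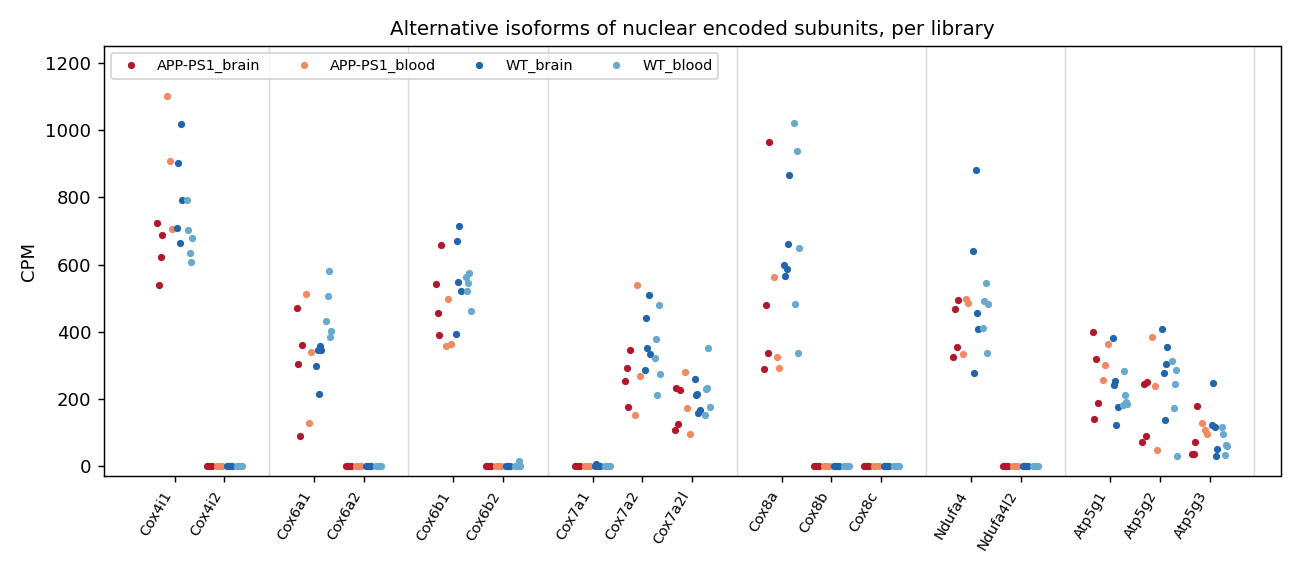
CPM (y axis) of alternative isoform genes of nuclear encoded subunits (x axis, families divided by grey lines) in each library, coloured by group. Cox4i2, Cox6a2, Cox8b, Cox8c and Ndufa4l2 lie at 0 in all 17 libraries, and the 3 Atp5g genes are all detected.

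To ask how brain cells differ from circulating ones and whether the strains differ, all 2366 genes that passed the expression filter were tested with edgeR's quasi-likelihood test and Benjamini-Hochberg adjustment. Of the 101 oxidative phosphorylation genes, 82 were tested, 13 mitochondrial and 69 nuclear, and the other 19 were too low. No member passed an adjusted p of 0.05 in any comparison, so differences are given as values with 95% intervals. Members are not replicates, and medians over them are descriptions. Comparisons that share a group share its libraries. Every interval and adjusted p below is from edgeR unless DESeq2 is named.

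In APP-PS1 mice, brain was compared with blood. The mitochondrial complex I message mt-Nd2 (ENSMUSG00000064345, chrM:3914-4951 (+)), which encodes a proton-pumping membrane subunit, had 1013, 1253, 1582 and 1511 CPM in the brain libraries, against 3175, 2633 and 1752 CPM in the blood libraries. Every brain library was below every blood library. The log2 fold change was -0.90 (95% interval -1.45 to -0.34, adjusted p = 0.123) by edgeR. mt-Nd1, which lines the ubiquinone site, had 1845, 1534, 1919.8 and 2177 CPM in brain, against 3815, 2914 and 2384 CPM in blood, again without overlap, and a log2 fold change of -0.70 (95% interval -1.27 to -0.14, adjusted p = 0.327). Groups did not overlap for 7 members, 1 higher and 6 lower in brain, or 8.54%, against 9.04% of all genes. The 6 lower ones were mt-Nd1, mt-Nd2 and the complex I genes Ndufa1, Ndufa7, Ndufb9 and Ndufc2, and the higher one was Ndufs3. Apart from the mitochondrial genes and Ndufa7 these were chosen after their values were seen. Some rest on few counts: Ndufc2 had 0, 6, 0 and 6 counts in brain, against 3, 5 and 6 in blood, so its raw counts overlapped. Ndufs3 had 4, 4 and 3 counts in blood. Ndufb9, a complex I accessory subunit, had 145, 140.5, 107 and 117 CPM in brain, against 230.4, 259 and 389 CPM in blood. Its log2 fold change was -1.22 (95% interval -2.26 to -0.19, adjusted p = 0.367). Of the 13 mitochondrial genes, 12 had a fold change below 0 and mt-Nd6 one of 0.93 (95% interval -1.20 to 3.06). Within the mitochondrial counts, mt-Nd2 made up 6.14% in APP-PS1 brain and 8.52% in APP-PS1 blood, and 6.0% in WT brain and 6.46% in WT blood. Uqcrh was the nuclear member with the smallest p among those higher in brain. It had 615, 457, 267 and 525 CPM in brain, against 230.4, 345 and 146 CPM in blood, with overlap and a log2 fold change of 0.89 (95% interval 0.06 to 1.73, adjusted p = 0.435). Red cell markers also differed between these groups, summing to 36.2 to 368 CPM in APP-PS1 brain and to 2970.2 to 8071 CPM in APP-PS1 blood, and their part in these values was not tested. The fold change of mt-Nd2 ran from -1.07 to -0.62 over the alternatives run, and was nearest to 0 without the 2 libraries that stood apart. The lowest adjusted p of any member in this comparison was 0.123 by edgeR, 0.158 with sex as a term, 0.240 without those 2 libraries and 0.0511 by DESeq2. Over all members, edgeR called 0 of 82 members (0 also by DESeq2), against 0.549% of all 2366 genes. At an unadjusted p under 0.05 the count was 6 of 82 by edgeR (7.32%) and 7 by DESeq2, against 10.7% of all genes by edgeR. The median log2 fold change was -0.35 for the 13 mitochondrial genes and 0.03 for the 69 nuclear genes, beside 0.03 over all 2366 genes. With 1 library left out, the mitochondrial median ran from -0.60 (APP-PS1 blood replicate 3 omitted) to -0.14 (APP-PS1 blood replicate 2 omitted). The 95% interval lay within 2-fold on either side for 18 of the 82 (22.0%), against 11.5% of all genes.

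In WT mice brain was compared with blood with 5 libraries in each group. Groups did not overlap for 2 members, both lower in brain, or 2.44%, against 2.62% of all genes. Both are complex IV genes. Cox7c, a small subunit (ENSMUSG00000017778, chr13:86044816-86046904 (-)), had 299, 259, 235, 386.9 and 271 CPM in WT brain, against 522, 387.5, 479, 399 and 491 CPM in WT blood. Its separation rests on the narrow gap from 386.9 CPM in WT brain replicate 4 to 387.5 CPM in WT blood replicate 2. Its log2 fold change was -0.72 (95% interval -1.29 to -0.15, adjusted p = 0.398), and it was chosen after its values were seen. Cox6a1, whose promoter stretch is printed above, had 299, 347, 215, 357 and 344 CPM in WT brain, against 433, 506, 579.8, 383 and 403 CPM in WT blood, and a log2 fold change of -0.60 (95% interval -1.21 to 0.00, adjusted p = 0.688). Neither passed the adjustment. mt-Nd2, which had the lowest p in APP-PS1 mice, had 1579, 1259.5, 1564, 1509.9 and 1513 CPM in WT brain, against 1290.4, 1605, 1516, 2396 and 1031 CPM in WT blood, with overlap and a log2 fold change of -0.14 (95% interval -0.59 to 0.31, adjusted p = 0.959). mt-Nd6 was the member with the highest fold change, 1.28 (95% interval -0.08 to 2.65, adjusted p = 0.733), with 13.6, 47.1, 215, 121 and 167 CPM in WT brain, against 32.6, 55.4, 66.9, 0 and 49.1 CPM in WT blood. It had 99 counts over all 17 libraries. Over all members, edgeR called 0 of 82 members (0 also by DESeq2), against 0.761% of all 2366 genes. At an unadjusted p under 0.05 the count was 1 of 82 by edgeR (1.22%) and 3 by DESeq2, against 7.27% of all genes by edgeR. The median log2 fold change was -0.08 for the 13 mitochondrial genes and 0.00 for the 69 nuclear genes, beside 0.02 over all 2366 genes. The mitochondrial median changed sign, to 0.04, when WT blood replicate 4 was left out, and was -0.20 when WT blood replicate 5 was. The 95% interval lay within 2-fold on either side for 51 of the 82 (62.2%), against 29.7% of all genes.

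Averaged over strains, which uses all 17 libraries, brain was again set against blood. The lowest adjusted p was that of mt-Nd2, with a log2 fold change of -0.52 (95% interval -0.88 to -0.16, adjusted p = 0.116), followed by mt-Nd1 at -0.44 (95% interval -0.80 to -0.07, adjusted p = 0.230). Complex V genes lay near 0, with a median of 0.09 and a range from -0.17 to 0.35 over 15 genes, 14 of them with an interval inside 2-fold. All 11 tested nuclear complex IV genes had such an interval, with fold changes from -0.35 to 0.20. Over all members, edgeR called 0 of 82 members (0 also by DESeq2), against 2.62% of all 2366 genes. At an unadjusted p under 0.05 the count was 5 of 82 by edgeR (6.10%) and 5 by DESeq2, against 13.4% of all genes by edgeR. The median log2 fold change was -0.25 for the 13 mitochondrial genes and 0.02 for the 69 nuclear genes, beside 0.03 over all 2366 genes. Without the 2 libraries that stood apart the mitochondrial median was -0.08. The 95% interval lay within 2-fold on either side for 57 of the 82 (69.5%), against 39.3% of all genes.

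APP-PS1 brain was compared with WT brain to ask whether the amyloid strain differs in the tissue. No member had groups that did not overlap, against 1.56% of all genes. The lowest p was that of Ndufa8, a complex I subunit chosen after its values were seen (ENSMUSG00000026895, chr2:36036326-36049406 (-)), with 0, 46.8, 35.6 and 23.5 CPM in APP-PS1 brain, against 27.2, 218, 195, 121 and 31.3 CPM in WT brain. The groups overlapped, and the log2 fold change was -1.97 (95% interval -3.35 to -0.60, adjusted p = 0.999). The APP-PS1 brain values of Ndufa8 rest on 0, 4, 2 and 3 counts. mt-Co2, the copper subunit of complex IV that takes electrons from cytochrome c, had 1375, 1218, 2204 and 2717 CPM in APP-PS1 brain, against 3130.3, 3043, 1544, 2602 and 2942 CPM in WT brain, and a log2 fold change of -0.53 (95% interval -1.08 to 0.03, adjusted p = 0.999). Ndufa13 had 1085, 784, 1173 and 877 CPM in APP-PS1 brain, against 994, 789, 1134, 948 and 616 CPM in WT brain, and a log2 fold change of 0.07 (95% interval -0.44 to 0.59, adjusted p = 0.999). Over all members, edgeR called 0 of 82 members (0 also by DESeq2), against 0% of all 2366 genes. At an unadjusted p under 0.05 the count was 1 of 82 by edgeR (1.22%) and 1 by DESeq2, against 4.14% of all genes by edgeR. The median log2 fold change was -0.22 for the 13 mitochondrial genes and -0.12 for the 69 nuclear genes, beside -0.04 over all 2366 genes. Leaving out 1 library moved the mitochondrial median between -0.30 (without APP-PS1 brain replicate 3) and -0.04 (without APP-PS1 brain replicate 2). The 95% interval lay within 2-fold on either side for 44 of the 82 (53.7%), against 23.3% of all genes.

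APP-PS1 blood was compared with WT blood, where depth and sex also differ between the groups. Groups did not overlap for 8 members, 4 higher and 4 lower in APP-PS1 blood, or 9.76%, against 6.93% of all genes. Uqcrb, a small complex III subunit chosen after its values were seen (ENSMUSG00000021520, chr13:66900617-66905378 (-)), had 51.2, 21.6 and 24.3 CPM in APP-PS1 blood, against 228, 94.9, 134, 95.8 and 246 CPM in WT blood, with a log2 fold change of -2.42 (95% interval -4.02 to -0.82, adjusted p = 0.371). The APP-PS1 blood values rest on 1 or 2 counts per library. Ndufa7 had 922, 949.6 and 1046 CPM in APP-PS1 blood, against 522, 308, 613, 447 and 648 CPM in WT blood, with a log2 fold change of 0.84 (95% interval 0.25 to 1.42, adjusted p = 0.394). Cox7c had 230.4, 259 and 365 CPM in APP-PS1 blood, against 522, 387, 479, 399 and 491 CPM in WT blood, and a log2 fold change of -0.78 (95% interval -1.51 to -0.04, adjusted p = 0.585). The 8 genes came from all 4 complexes: Ndufa7, Ndufb10, Cox7b and Uqcr11 were higher, and Ndufs4, Uqcrb, Cox7c and Atp5c1 lower, all but Ndufa7 named after their values were seen. Ndufs4 had 0, 3 and 2 counts in the APP-PS1 blood libraries. For Uqcr11 and Ndufb10 the separation was narrow. The lowest APP-PS1 blood value and the highest WT blood value were 364.9 and 363.8 CPM for Uqcr11, and 281.7 and 279.5 CPM for Ndufb10. mt-Nd2 had 3175, 2633 and 1752 CPM in APP-PS1 blood, against 1290.4, 1605, 1516, 2396 and 1031 CPM in WT blood, and a log2 fold change of 0.59 (95% interval 0.06 to 1.11, adjusted p = 0.539) with overlap. Over all members, edgeR called 0 of 82 members (0 also by DESeq2), against 0.0423% of all 2366 genes. At an unadjusted p under 0.05 the count was 8 of 82 by edgeR (9.76%) and 8 by DESeq2, against 8.03% of all genes by edgeR. The median log2 fold change was 0.16 for the 13 mitochondrial genes and -0.01 for the 69 nuclear genes, beside -0.05 over all 2366 genes. For the mitochondrial genes it became -0.10 with no filter on low counts and 0.29 when WT blood replicate 4 was left out. The 95% interval lay within 2-fold on either side for 23 of the 82, against 12.9% of all genes.

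The difference of the brain-blood difference between the strains was tested as an interaction, the log2 fold change of brain over blood in APP-PS1 mice minus that in WT mice. mt-Nd2 had an interaction of -0.76 (95% interval -1.48 to -0.04, adjusted p = 0.945), so the difference between its brain-blood gaps in APP-PS1 and in WT mice did not pass the test. The other members at an unadjusted p under 0.05 were Uqcr11, a small complex III subunit chosen after its values were seen, at -1.03 (95% interval -2.02 to -0.05, adjusted p = 0.945), and Uqcrh at 1.02 (95% interval 0.00 to 2.05, adjusted p = 0.945). Over all members, edgeR called 0 of 82 members (0 also by DESeq2), against 0.0423% of all 2366 genes. At an unadjusted p under 0.05 the count was 3 of 82 by edgeR (3.66%) and 4 by DESeq2, against 4.95% of all genes by edgeR. The median log2 fold change was -0.38 for the 13 mitochondrial genes and -0.11 for the 69 nuclear genes, beside 0.02 over all 2366 genes. For the mitochondrial genes it was -0.53 without APP-PS1 brain replicate 4 and -0.16 without APP-PS1 blood replicate 2. The 95% interval lay within 2-fold on either side for 4 of the 82 (4.88%), against 5.11% of all genes. For the other 78 the interval reached beyond 2-fold.

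**Figure D4:**
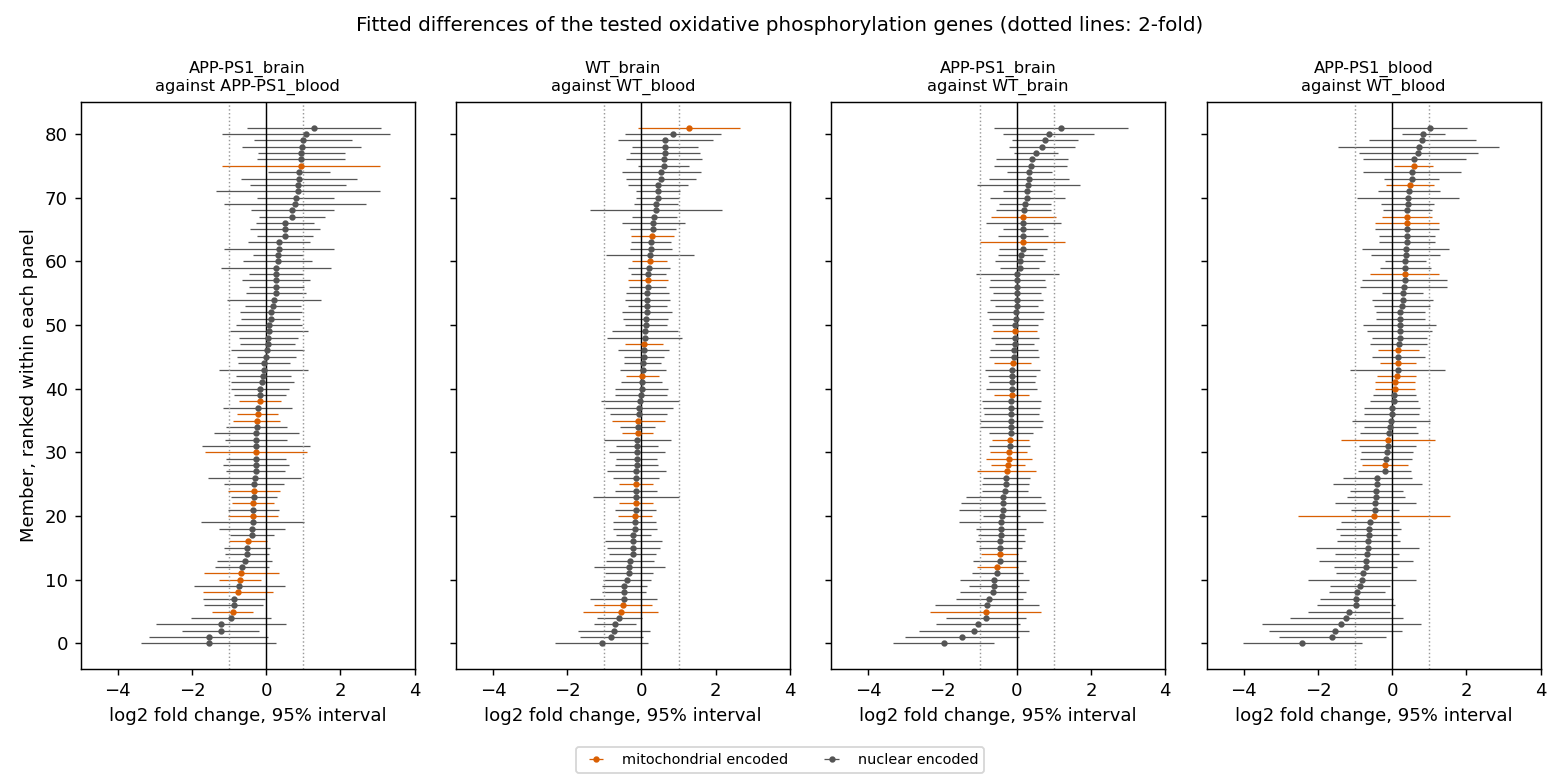
Fitted log2 fold changes with 95% intervals (x axis) of the 82 tested oxidative phosphorylation genes, ranked within each of 4 comparisons (y axis); orange marks the 13 mitochondrially encoded and grey the 69 nuclear encoded genes, and dotted lines mark 2-fold. Intervals are shortest for WT brain against WT blood, where 51 of 82 lie within 2-fold, and longer in comparisons with APP-PS1 blood, where 18 and 23 of 82 do.

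Other genes of the pathway were set beside the members by lists, whose members the rule did not take. In these lists edgeR and DESeq2 called 0 genes in each of the 6 comparisons, unless stated below. Of 30 assembly factors outside the rule, 10 were tested, with a median log2 fold change of 0.43 and with 2 of them by edgeR and 2 by DESeq2 at an unadjusted p under 0.05. Cox17, which passes copper to complex IV, had a fold change of 0.48 (95% interval -0.32 to 1.29, adjusted p = 0.744). Of 8 complex II genes, 4 were tested, with a median log2 fold change of -0.02 and with 0 of them by edgeR and 0 by DESeq2 at an unadjusted p under 0.05. Sdhb, its iron-sulphur subunit, had a fold change of -0.10 (95% interval -0.92 to 0.72, adjusted p = 0.959). Of 20 genes of electron carriers and their synthesis, 4 were tested, with a median log2 fold change of -0.56 and with 0 of them by edgeR and 1 by DESeq2 at an unadjusted p under 0.05. Cycs, which encodes cytochrome c, had a fold change of -0.24 (95% interval -1.17 to 0.69, adjusted p = 0.914). Of 13 carrier and uncoupling genes, 7 were tested, with a median log2 fold change of 0.25 and with 0 of them by edgeR and 1 by DESeq2 at an unadjusted p under 0.05. Slc25a5, an ATP/ADP carrier, had a fold change of 0.24 (95% interval -0.42 to 0.91, adjusted p = 0.876). Of 18 tricarboxylic acid cycle genes, 3 were tested, with a median log2 fold change of -0.37 and with 0 of them by edgeR and 0 by DESeq2 at an unadjusted p under 0.05. Mdh2, a malate dehydrogenase, had a fold change of -0.37 (95% interval -1.17 to 0.42, adjusted p = 0.813). Of 19 mitochondrial antioxidant and stress genes, 11 were tested, with a median log2 fold change of -0.24 and with 1 of them by edgeR and 1 by DESeq2 at an unadjusted p under 0.05. Sod1, a superoxide dismutase, had a fold change of 0.41 (95% interval -0.32 to 1.14, adjusted p = 0.757). Of 21 genes of mitochondrial DNA expression, 4 were tested, with a median log2 fold change of 0.43 and with 0 of them by edgeR and 0 by DESeq2 at an unadjusted p under 0.05. Ssbp1, which binds single-stranded mitochondrial DNA, had a fold change of 1.00 (95% interval -0.52 to 2.51, adjusted p = 0.717). All of these values are for APP-PS1 brain against APP-PS1 blood. Over all 2366 genes the median there was 0.03, and 10.7% by edgeR (266 genes by DESeq2) had an unadjusted p under 0.05. Each named gene was the highest of its list by mean CPM.

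Of 77 mitochondrial ribosomal protein genes, 33 were tested and 1 was called by edgeR and 0 by DESeq2. The call was in brain against blood averaged over strains, where edgeR called 2.62% of all 2366 genes. Mrpl36, a large-subunit protein, rose in brain averaged over strains with a log2 fold change of 2.21 (95% interval 0.90 to 3.52, adjusted p = 0.0498), and lost its call in 19 of the alternatives run. It shares 30 exon bases with the complex I gene Ndufs6 on the other strand. Mrps14, the highest of the list by CPM, had -0.83 (95% interval -1.56 to -0.11, adjusted p = 0.399) in APP-PS1 brain against APP-PS1 blood. Of 91 cytosolic ribosomal protein genes, 82 were tested. Of these, 4 by edgeR (4.88%) and 5 by DESeq2 had an unadjusted p under 0.05 in APP-PS1 brain against APP-PS1 blood. The share of all genes by edgeR there was 10.7%. Rps27, the highest of them, had -0.27 (95% interval -0.75 to 0.22, adjusted p = 0.761) there. Of 15 dissociation and immediate early genes, 5 were tested. In APP-PS1 brain against APP-PS1 blood edgeR and DESeq2 each called 1, against 0.549% of all genes by edgeR. Averaged over strains each called 2, against 2.62% of all genes by edgeR. Among these, Ier2, an immediate early gene, fell in APP-PS1 brain to 164 CPM, against 745 CPM in APP-PS1 blood, with a log2 fold change of -2.15 (95% interval -2.96 to -1.34, adjusted p = 0.000911). Averaged over strains, Ier2 fell by 1.56 and Junb, an AP-1 factor, by 0.75 on the log2 scale in brain (adjusted p = 3.88e-05 and 0.0355), and Junb lost its call in 12 of the alternatives run. The 5 tested genes of this list had a median log2 fold change of -0.79 in WT brain against WT blood, with 1 of them above 0. There 3 of the 5 had an unadjusted p under 0.05 by edgeR and 3 by DESeq2, against 7.27% of all genes by edgeR. The WT groups overlapped for mt-Nd2, given above, which was not called in any comparison. The part of these genes in the mt-Nd2 values was not tested.

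Shared sequence limits some members. By exon annotation 39 members share bases with another gene, most often on the other strand. Ndufa13 shares 375 bases with Tssk6, which had 0 counts, Atp5j 397 bases with Gabpa, which had 37 counts beside 745 for Atp5j, and Ndufb6 257 bases with Toporsos, which had 85 counts beside 186. Near-identical copies (at least 95% identity over at least 50% of the transcript) exist for 25 members; a copy had counts for only 3 of them, Atp5h, Atp5l and Cox5b, and in none did it reach 10% of the member's counts. The 25 include mt-Atp6, mt-Co1, mt-Co2, mt-Co3, mt-Nd3, mt-Nd4, mt-Nd4l and mt-Nd5, whose nuclear copies all had 0 counts. That of mt-Atp6 was identical over 678 bases. Whether reads that match both were kept was not stated, so a copy at 0 does not show that the member lost no reads.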

How the data were processed

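RNA of CD8+ T cells from brain and blood was sequenced, and the authors deposited 1 table of raw counts per gene for the 17 libraries. Per the submitters' processing notes FastQC, Bowtie2 2.2.2, HTSeq 0.11.2 and DESeq2 were used with GRCm38; the sources used here name no annotation, strand setting or rule for reads with several matches. Of the identifiers, 48349 matched GENCODE M21, which gave positions, exon overlaps and the length of the principal transcript. Among transcripts ranked equally as principal, the longest was taken.

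Members were taken by symbol, and the members, related lists and tests were chosen with earlier results of these data known. CPM is counts per library total. Genes passing edgeR's filterByExpr (2366) were fitted with edgeR 4.0.16 (R 4.3.3, limma 3.58.1; TMM scaling, robust quasi-likelihood fit, 1 mean per group over all 4 groups) for 4 pairwise comparisons, the brain-blood difference averaged over strains and its interaction with strain. Benjamini-Hochberg adjustment ran over all tested genes, called means an adjusted p under 0.05, and intervals are the fitted change with its t-based 95% limits. DESeq2 1.42.0, other filters and scalings, sex as a term, fits of only the groups compared and leaving out each library were alternatives. Copies were found with BLAST 2.17.0; tables and plots used Python 3.11.15, pandas 2.3.3, NumPy 2.4.6, SciPy 1.17.1 and matplotlib 3.10.9. Named were the 13 mitochondrial genes, called members, the 3 highest nuclear genes per complex by CPM, the isoform families, and of each related list the called genes and the highest gene. No 2 libraries of a group held equal values: chi-square per degree of freedom ran from 2.59 to 5.69 over 29 pairs.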

Additional observations from a re-analysis of the deposited data

Results flagged for a closer look

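Within groups of 4 or 5 libraries, 110 sets of values were searched for a single library far from the others by Dixon's test, and 7 had one; chance gives about 1 in 20. The nuclear share of WT brain replicate 4 was 2.34%, against 1.93 to 2.04% in the other 4 WT brain libraries. mt-Co3 stood at 2072 CPM in WT brain replicate 3, against 3172 to 3475 CPM in the other WT brain libraries. For mt-Nd2, WT brain replicate 2 had 1259.5 CPM, against 1509.9 to 1579 CPM. Uqcr10 reached 511 CPM in WT blood replicate 4, against 279 to 344 CPM in the other WT blood libraries. Atp5o had 163 CPM in WT brain replicate 1, against 432 to 494 CPM. Cox6b2 stood at 16 CPM in WT blood replicate 4 and Cox7a1 at 5.89 CPM in WT brain replicate 2, each from 1 count, with the other libraries of the group at 0. A set with a single library above 0 is always marked, so the marks of Cox6b2 and Cox7a1 were fixed in advance. Both are among the 7 set against 1 in 20.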

How the results depend on the processing

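No oxidative phosphorylation gene was called in any of the 6 comparisons under any alternative run. The mitochondrial median log2 fold change kept its sign under every alternative in 4 comparisons, though not its size. It ran from -0.60 to -0.14 in APP-PS1 brain against APP-PS1 blood, from -0.30 to -0.04 in APP-PS1 brain against WT brain, from -0.31 to -0.08 averaged over strains and from -0.53 to -0.16 in the interaction. In WT brain against WT blood it ran from -0.20 (without WT blood replicate 5) to 0.04 (without WT blood replicate 4), and in APP-PS1 blood against WT blood from -0.10 (no filter) to 0.29 (without WT blood replicate 4). The nuclear median log2 fold change of APP-PS1 blood against WT blood was -0.01, and became -0.28 without a filter and -0.27 when 5 CPM in 3 libraries was required; leaving out 1 library gave -0.20 (without APP-PS1 blood replicate 2) to 0.085. The nuclear median of the interaction was -0.11, and became 0.048 and 0.022 under the same filters; leaving out 1 library gave -0.16 to 0.18 (the highest without APP-PS1 blood replicate 2). The nuclear share of APP-PS1 blood minus WT blood was 0.0977 percentage points and -0.0419 on TMM effective library sizes. The cause was not tested. Of the values of named genes under alternatives, 6393 kept direction and call or moved by less than their error, 85 moved further, 31 lost a call and 1 gained one (Junb). Over all genes, calls in APP-PS1 brain against APP-PS1 blood numbered 13, and 21 by DESeq2, 8 or 22 when replicate 2 or 3 of APP-PS1 blood was left out; in APP-PS1 blood against WT blood 1 became 0 to 7. No paired analysis was possible because no label links a brain library to a blood library and the strains share no animals. Sex and strain are separated by only 1 female library in each APP-PS1 group, tissue and cell preparation cannot be told apart, and with 27646 to 214670 counts per library single nuclear genes rest on few counts. Leaving out the 2 libraries that stood apart was chosen after seeing the data.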
